A study of Danio rerio with 8 samples.

Results

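The maternal genome activators nanog, pou5f3 and sox19b were followed in zebrafish (Danio rerio), in embryos collected 4 hours after fertilization, with ribosome footprints as the readout. The 3 genes were taken by identifier, as ENSDARG00000075113 (nanog), ENSDARG00000044774 (pou5f3) and ENSDARG00000040266 (sox19b), out of 33633 gene identifiers used. All 3 were listed once in every file, and their identifiers matched those symbols in a table of gene names.

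In zebrafish the egg supplies the mRNAs of these 3 transcription factors, and the young embryo translates them before its own genome is transcribed. Nanog is a homeodomain protein, Pou5f3 a POU-domain protein related to mammalian Oct4, and Sox19b the main maternal member of the SoxB1 group of HMG-box proteins. They bind many regulatory regions early, and embryos that lack them fail to switch on a large part of the first zygotic genes. The activation of the zygotic genome and the clearance of maternal mRNA are both under way in the blastula.

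The 8 samples formed 4 groups of 2. The tag genotype reads Ddx3xb-/Ddx3xb- for 3 of the groups, namely mutant embryos given a construct named ddx3xbFL (KO_FL), mutant embryos given ddx3xb△N (KO_dN) and mutant embryos with no injection named (KO), and wild type for the last (WT). The product of ddx3xb is an RNA helicase of the DEAD-box type, a family member known for its part in translation initiation. The labels leave unsaid what the mutation is, which parts of the gene each construct holds and whether the mothers were mutant. No sample of mutants given a control construct was analysed here, so the injection and the construct cannot be told apart, and the labels do not say whether the 2 replicates of a group are separate clutches. WT and KO share a style of sample title that differs from that of KO_FL and KO_dN. The labels do not say whether all groups were prepared together. In KO_FL/KO and KO_dN/KO, a difference in preparation cannot be told apart from the injection.

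Each group had 1 deposited value per gene, in FPKM, a read number corrected for transcript length and library size, made by the authors from both replicates. There was thus no replicate error and no test for any value below, and the order of neighbouring levels cannot be set against a spread. Whole embryos were lysed, so fewer cells translating a gene and fewer footprints per cell cannot be told apart. Footprints alone also do not separate more mRNA from more ribosomes per mRNA.

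The scale differed between groups. All listed genes summed to 395754 FPKM in KO_FL, 190693 in KO_dN, 364061 in KO and 2050290 in WT, and the median gene tested stood at 1.74, 0.848, 1.43 and 8.19 FPKM in KO_FL, KO_dN, KO and WT. Genes with a mean of 1 FPKM or more over KO_FL, KO_dN, KO and WT entered the comparisons as genes tested, a filter passed by 7698 genes and all 3 activators. From the worth of a single read among low values, the libraries had depths of 100% and 66.7% of the deepest in KO_FL, 75.7% and 71.5% in KO_dN, 91.1% and 57.1% in KO, and 34.5% and 27.1% in WT, if the 4 files share a scale. WT, lowest in depth by this measure, had the most genes above 0 FPKM, 23670, against 20623 in KO_FL, 18078 in KO_dN and 19442 in KO. The targeted gene ddx3xb stood at 76.7 FPKM in KO_FL, 126.5 in KO_dN, 14.7 in KO and 128.9 in WT. In KO_FL and KO_dN, footprints on the construct and on the embryo's own ddx3xb cannot be told apart. Of 21 later tissue markers, 0 were tested, and their highest value was 1.44 FPKM, in WT.

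The order of the activators by level was the same in every group: nanog first, then pou5f3, then sox19b. nanog stood at 73.6 FPKM in KO_FL, 40.8 in KO_dN, 69.7 in KO and 117.9 in WT. Its rank among all 33633 identifiers, with 1 the highest, was 269 in KO_FL, 219 in KO_dN, 207 in KO and 461 in WT. nanog was thus within the top 1.37% of identifiers in WT and within the top 0.8% in each mutant group.

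pou5f3 stood at 38.3 FPKM in KO_FL, 16.8 in KO_dN, 29.1 in KO and 107.5 in WT. Its rank was 395 in KO_FL, 406 in KO_dN, 378 in KO and 490 in WT. This was the narrowest span of ranks among the 3 genes, although its FPKM as deposited had the widest span, 6.4-fold between WT and KO_dN.

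sox19b stood at 6.64 FPKM in KO_FL, 6.61 in KO_dN, 9.46 in KO and 22.8 in WT. Its rank was 1299 in KO_FL, 722 in KO_dN, 814 in KO and 1714 in WT. It was the lowest of the 3 in each group, within the top 5.10% of all identifiers in WT. Many identifiers were at or near 0, however, and among the 7698 genes tested its rank lay at 16.9% in KO_FL, 9.38% in KO_dN, 10.6% in KO and 22.3% in WT, where that of nanog lay between 2.69% and 5.99% and that of pou5f3 between 4.91% and 6.37%.

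**Figure D1:**
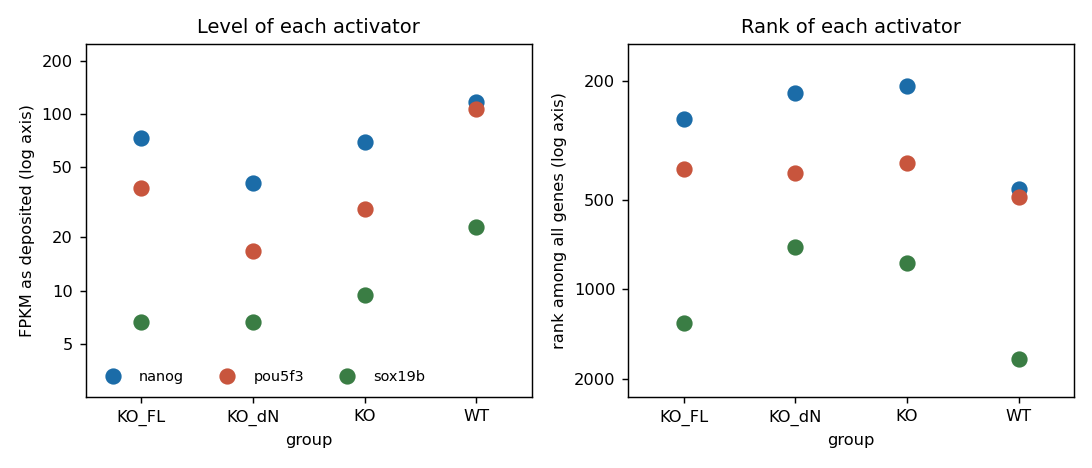
FPKM as deposited (left, log axis) and rank among 33633 identifiers (right, log axis, the highest gene at the top) of nanog, pou5f3 and sox19b in KO_FL, KO_dN, KO and WT; each point is 1 deposited value. Levels are highest in WT for all 3 genes, while ranks are farthest from the top in WT, at 461, 490 and 1714.

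FPKM and rank therefore ran opposite ways between each mutant group and WT. All 3 activators had more FPKM in WT, and all 3 stood nearer the top of the list in KO_FL, KO_dN and KO. Rank needs no scaling between groups, but a share of the genes at 1 FPKM or more depends on the scale. Those genes numbered 5515 in KO_FL, 3458 in KO_dN, 4912 in KO and 10889 in WT. Taken so, pou5f3 stood at 7.16% in KO_FL, 11.7% in KO_dN, 7.70% in KO and 4.50% in WT. In the same order sox19b stood at 23.6%, 20.9%, 16.6% and 15.7%, and nanog at 4.88%, 6.33%, 4.21% and 4.23%. By this share pou5f3 and sox19b were nearest the top in WT, and nanog was about level in KO and WT. Of the 7698 genes tested, 45.6% stood nearer the top in KO_FL than in WT, 44.5% in KO_dN than in WT and 45.5% in KO than in WT. The filter for genes tested weighs WT most and favours genes high in WT, which can lower these shares. How far it did so was not tested. The 3 comparisons share the WT libraries, so they are not separate observations of the same shift.

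nanog and pou5f3 belonged to the decile of tested genes with the highest mean level, and sox19b to the next decile. In the highest decile, 44.2% of 769 genes stood nearer the top in KO than in WT, and in the next decile 38.6% of 770. WT carries most of the mean that sets the deciles, which can lower these shares, and this too was not tested. The rank of nanog in WT was 2.23 times its rank in KO, that of sox19b 2.11 times and that of pou5f3 1.3 times.

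Measured against the median gene tested in the same group, nanog was 42.4-fold higher in KO_FL, 48.2-fold in KO_dN, 48.8-fold in KO and 14.4-fold in WT. pou5f3 was 22.1-fold higher in KO_FL, 19.8-fold in KO_dN, 20.4-fold in KO and 13.1-fold in WT. sox19b was 3.83-fold higher in KO_FL, 7.79-fold in KO_dN, 6.62-fold in KO and 2.79-fold in WT. Each of the 3 genes was thus least far above the median gene tested in WT. The filter for genes tested weighs WT most and favours genes high in WT, which can lower these folds in WT. With no filter on low values, the KO/WT log2 ratios relative to the median gene were negative for all 3. Those ratios carry a pseudocount of 1 FPKM, which these folds do not. As a share of all FPKM in the group, which needs no filter, each of the 3 was also lowest in WT. In KO and WT these shares were 0.0191% and 0.00575% for nanog, 0.00799% and 0.00525% for pou5f3, and 0.00260% and 0.00111% for sox19b.

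**Figure D2:**
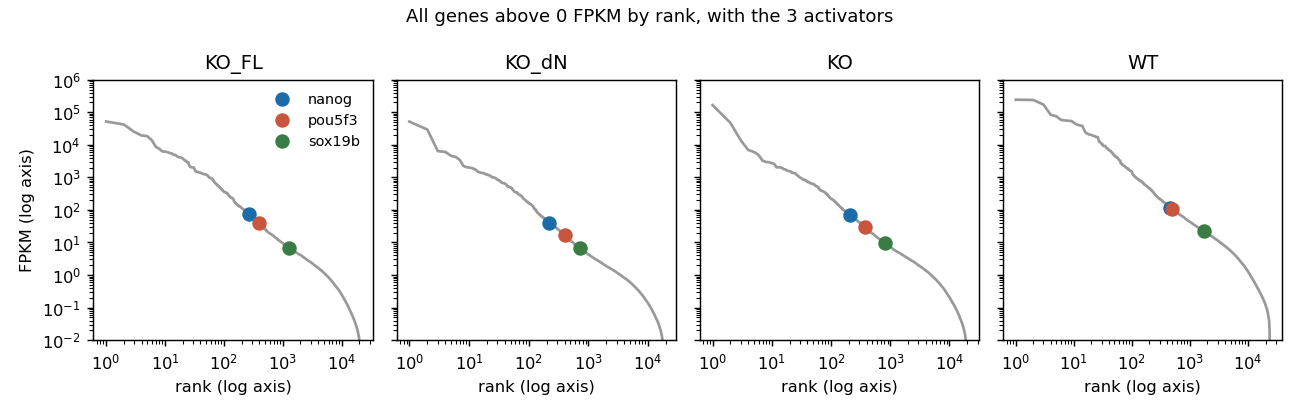
FPKM (log axis) against rank (log axis) for all genes above 0 FPKM in KO_FL, KO_dN, KO and WT, as a grey line, with nanog, pou5f3 and sox19b as points. nanog and pou5f3 sit almost together in WT, at ranks 461 and 490, and apart in the mutant groups, at ranks 207 and 378 in KO.

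The number of reads behind a value follows FPKM and depth together. If both libraries of a group held a gene at the same level, nanog had its most reads in KO_FL, and 49.0% of that number in KO_dN, 84.2% in KO and 59.2% in WT. pou5f3 had its most reads in WT, with 96.3% of that number in KO_FL, 37.3% in KO_dN and 65.0% in KO. For sox19b the shares were 78.6% in KO_FL, 69.0% in KO_dN and 99.6% in KO, against the most in WT. The absolute numbers of reads could not be recovered, so no counting error is given.

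The ratio of 2 genes inside a group is free of any scaling between groups, since FPKM is per length and both genes share the libraries. The deposited values of WT differ in layout from those of the mutant groups. Whether annotation and read counting were the same in all groups is not stated. Ratios and ranks set side by side between WT and the mutant groups assume that they were. nanog exceeded pou5f3 1.92-fold in KO_FL, 2.43-fold in KO_dN, 2.39-fold in KO and 1.1-fold in WT. The pair was thus near parity in WT and about 2-fold apart in all 3 mutant groups. The excess of nanog over sox19b was 11.1-fold in KO_FL, 6.18-fold in KO_dN, 7.36-fold in KO and 5.16-fold in WT. The excess of pou5f3 over sox19b was 5.77-fold in KO_FL, 2.55-fold in KO_dN, 3.07-fold in KO and 4.71-fold in WT. The balance between pou5f3 and sox19b in KO_FL was therefore nearer to WT than to KO, while the balance between nanog and sox19b in KO_FL was farther from WT than in KO.

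KO was set against WT to see where the activators stood in embryos with the ddx3xb mutation. Log2 ratios were taken as log2((a + 1)/(b + 1)), which understates the change of low genes. As deposited, the KO/WT log2 ratio was -0.75 for nanog, -1.85 for pou5f3 and -1.19 for sox19b, where the median gene had -1.94. Of the 3 activators, 2 were lower in KO by 2-fold or more, as were 83.1% of all genes tested, and 0 were higher, against 2.48% of all genes. With values scaled by median of ratios, the same log2 ratios were 1.43 for nanog, 0.32 for pou5f3 and 0.85 for sox19b, so the direction against WT depends on the scaling for all 3.

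Relative to the median gene, the KO/WT log2 ratio was 1.19 for nanog, 0.09 for pou5f3 and 0.75 for sox19b. nanog was at least 2-fold higher in KO on this scale, as were 15.6% of the genes tested, and 0 of 3 were lower, against 16.8%. The ratio of nanog stood at percentile 87.8 of all genes tested, that of sox19b at 78.3 and that of pou5f3 at 54.3. Relative values of KO/WT moved with the pseudocount and the filter: with no filter on low values they were -0.26 for nanog, -1.36 for pou5f3 and -0.70 for sox19b.

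**Figure D3:**
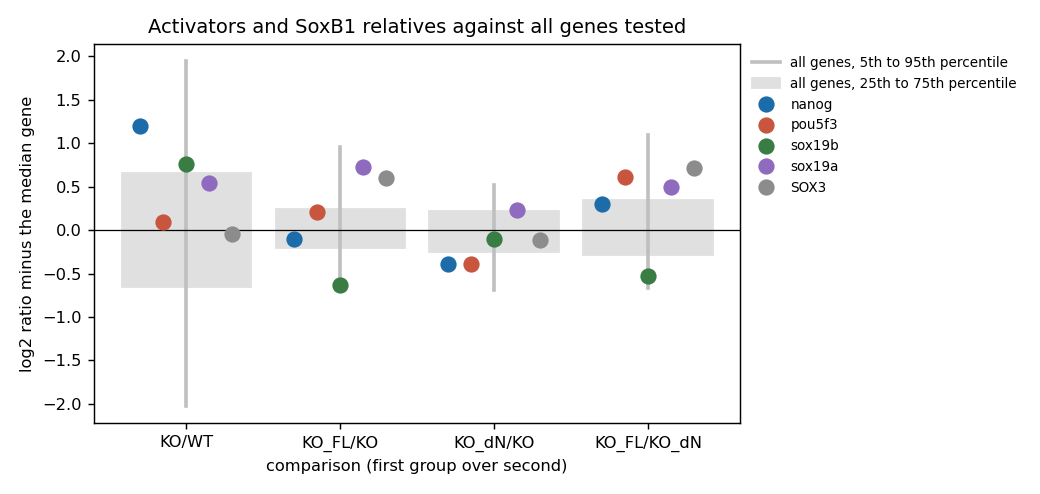
Log2 ratio minus that of the median gene (vertical axis) for nanog, pou5f3, sox19b and the SoxB1 genes sox19a and SOX3 in 4 comparisons, each the first group over the second, with the middle 50% of 7698 genes as a grey box and the 5th to 95th percentile as a grey line. nanog lies above the box in KO/WT at 1.19, and sox19b lies below the box in KO_FL/KO at -0.63 while sox19a lies above it at 0.73.

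KO_FL was set against KO for the mutants that had received ddx3xbFL. nanog and pou5f3 lay close to KO, with log2 ratios as deposited of 0.08 and 0.38, and sox19b had -0.45. Relative to the median gene these became -0.10 for nanog, 0.21 for pou5f3 and -0.63 for sox19b. None of the 3 differed by 2-fold in either direction, where 6.09% of genes passed it upward and 1.91% downward as deposited, and 4.72% and 2.64% relative to the median gene. The ratio of sox19b stood at percentile 6.01 of all genes, that of nanog at 37.5 and that of pou5f3 at 72.5. sox19b kept a relative ratio below 0 in all 11 settings tried, from -0.85 to -0.38.

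KO_dN was set against KO for the other construct. Log2 ratios as deposited were -0.76 for nanog, -0.76 for pou5f3 and -0.46 for sox19b, beside -0.36 for the median gene. Relative to that gene they were -0.39, -0.39 and -0.10 for nanog, pou5f3 and sox19b. nanog and pou5f3 thus had nearly the same ratio, and their balance was 2.43-fold in KO_dN against 2.39-fold in KO. None of the 3 differed by 2-fold, where 1.18% of genes were higher and 6.00% lower as deposited, and 1.70% and 1.96% relative to the median gene. Values scaled by median of ratios brought nanog to -0.06, pou5f3 to -0.08 and sox19b to 0.18, so the sign for sox19b flips with the scaling.

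KO_FL and KO_dN were also set side by side, a comparison that leaves out the KO libraries. As deposited, the KO_FL/KO_dN log2 ratio was 0.83 for nanog, 1.14 for pou5f3 and 0.01 for sox19b, where the median gene had 0.54. pou5f3 was the 1 activator at least 2-fold higher in KO_FL, as were 19.2% of all genes, and 0 were lower, against 0.935%. Relative to the median gene, the ratios were 0.30 for nanog, 0.61 for pou5f3 and -0.53 for sox19b, and 0 of 3 passed 2-fold, where 6.03% of genes were higher and 2.36% lower. sox19b stood at percentile 10.0 of all genes, and its rank was 1299 in KO_FL against 722 in KO_dN. With values scaled by median of ratios, the log2 ratio was -0.16 for nanog, 0.17 for pou5f3 and -0.92 for sox19b, so that of nanog changed sign, and so did that of sox19b from its value near 0.

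**Figure D4:**
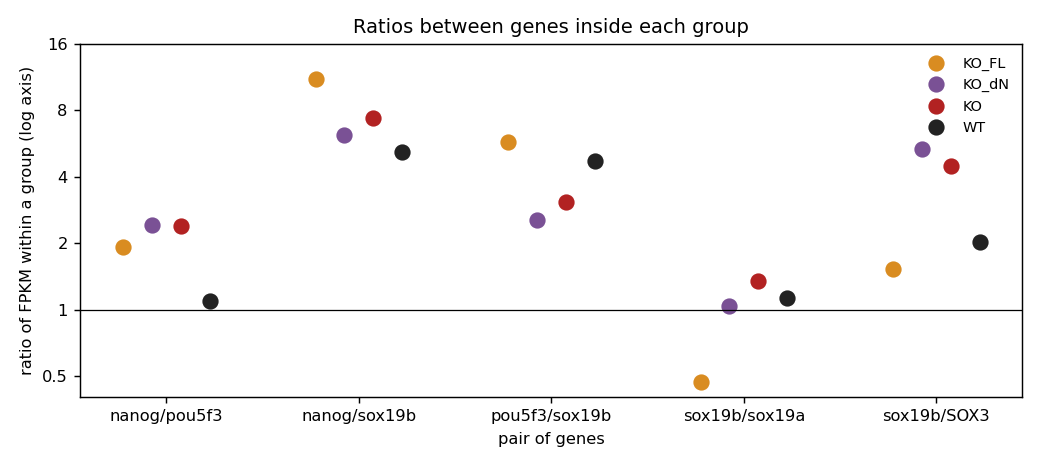
Ratio of FPKM of 2 genes inside each group (log axis), for 5 pairs of genes, with 1 point for each of KO_FL, KO_dN, KO and WT. The nanog/pou5f3 ratio is near 1 in WT only, at 1.1, and sox19b falls below sox19a in KO_FL only, at 0.472.

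Within the SoxB1 group, the level of sox19b was below that of sox19a in KO_FL and within 1.34-fold of it in the other groups. sox19a and SOX3, relatives of sox19b that the zygotic genome expresses in the zebrafish embryo, were also measured. sox19a stood at 14.1 FPKM in KO_FL, 6.36 in KO_dN, 7.05 in KO and 20.3 in WT. The level of sox19b was 0.472-fold that of sox19a in KO_FL, 1.04-fold in KO_dN, 1.34-fold in KO and 1.1-fold in WT. With no replicate error, the near-equal levels in KO_dN, KO and WT cannot be ordered.

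SOX3 stood at 4.32 FPKM in KO_FL, 1.24 in KO_dN, 2.11 in KO and 11.3 in WT. sox19b exceeded it 1.54-fold in KO_FL, 5.33-fold in KO_dN, 4.50-fold in KO and 2.02-fold in WT. In KO_FL/KO the ratio of sox19a stood at percentile 92.7 of all genes and that of SOX3 at 90.3, opposite to sox19b. Of the summed SoxB1 FPKM, sox19b held 26.2% in KO_FL, 45.4% in KO_dN, 49.1% in KO and 41.3% in WT.

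SOX2 and both identifiers named SOX1 were not tested. SOX2 was listed at 0 FPKM in KO_FL and stood at 0.028 in KO_dN, 0.024 in KO and 0.19 in WT. SoxB1 genes share an HMG box, and the sources do not say how reads that fit more than 1 of them were counted, so their split is uncertain. Among 13 identifiers of other POU genes the highest value in any group was 4.01 FPKM, of POU2F1 in WT, so that pou5f3 had the highest level of the listed POU genes in each group.

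Zygotic genes of the blastula, the class that the activators are known to switch on, had KO/WT ratios mostly below those of the activators. The list held 42 measured identifiers, of which 26 were tested, and 6 of the 42 are also markers of the enveloping layer or the yolk syncytial layer. Relative to the median gene, 0 of 26 were at least 2-fold higher in KO and 10 were lower, with a median of -0.82, against 15.6% higher and 16.8% lower among all genes. All 26 had a lower KO/WT ratio than nanog, 25 a lower one than sox19b and 22 a lower one than pou5f3. Among all genes tested, nanog stood at percentile 87.8, sox19b at 78.3 and pou5f3 at 54.3. DUSP6, singled out after its values were seen, was the gene above sox19b, at 0.95. The test filter weighs WT most and so favours genes high in WT.

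Of the 4 highest genes of that list, grhl3, an epidermal transcription factor gene, stood at 13.2 FPKM in KO_FL, 5.77 in KO_dN, 8.36 in KO and 148.6 in WT. ZIC2 stood at 5.40 FPKM in KO_FL, 0.68 in KO_dN, 1.32 in KO and 49.3 in WT. krt18a.1, a keratin gene of the outer layer, stood at 19 FPKM in KO_FL, 2.04 in KO_dN, 4.30 in KO and 37.5 in WT. apoeb, an apolipoprotein gene of the yolk cell, stood at 14.6 FPKM in KO_FL, 2.65 in KO_dN, 3.37 in KO and 31.1 in WT. As deposited, all 4 were highest in WT and higher in KO_FL than in KO.

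In KO_FL/KO, 8 of the 26 zygotic genes were at least 2-fold higher relative to the median gene and 0 were lower, with a median of 0.68, against 4.72% higher and 2.64% lower among all genes. Of the 26, 25 had a higher ratio than nanog and 21 a higher one than pou5f3, and all 26 stood above sox19b. Among all genes tested, nanog stood at percentile 37.5 in KO_FL/KO, pou5f3 at 72.5 and sox19b at 6.01. In KO_dN/KO, 0 of 26 passed 2-fold in either direction relative to the median gene, with a median of 0.23, where 1.70% of all genes were higher and 1.96% lower. The median level of the 26 was 1.38 FPKM in KO and 1.03 in KO_dN, near the pseudocount of 1 FPKM. Changes at such levels are understated, so this count does not show that there were none. In KO_FL/KO_dN, 9 of 26 were higher and 0 lower, with a median of 0.57, beside 6.03% and 2.36% of all genes. KO_FL/KO, KO_dN/KO and KO/WT share the KO libraries, so their values stand side by side and are not separate observations.

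Other products of the egg gave a second frame for the activators. Of 24 measured maternal oocyte genes, 19 were tested. Relative to the median gene in KO/WT, 2 of 19 were at least 2-fold higher and 3 lower. This was near the 15.6% and 16.8% of all genes, and the list median was -0.07. With nanog at percentile 87.8 of all genes tested, 17 of 19 oocyte genes had a lower ratio than nanog, near the share of all genes. Their 4 highest were CCNB1, a mitotic cyclin gene, gdf3, which encodes a maternal TGF-beta ligand, ZAR1, of the oocyte, and CCNA1, a cyclin gene of the germ line. gdf3 stood at 41.9 FPKM in KO_FL, 19.2 in KO_dN, 29.8 in KO and 75 in WT, and CCNB1 at 39.9 FPKM in KO_FL, 19.3 in KO_dN, 46.6 in KO and 197 in WT. In KO_FL/KO, 0 of 19 passed 2-fold relative to the median gene, where 4.72% of all genes were higher and 2.64% lower. With sox19b at percentile 6.01 of all genes tested, 18 of 19 had a higher ratio than sox19b, near the share of all genes.

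Of 41 measured identifiers listed as other maternal transcription factors, 31 were tested. The 31 included the co-activator genes CTNNB1 and ctnnb2 and the RNA-binding protein gene LIN28A. Relative to the median gene in KO/WT, 6 of the 31 were at least 2-fold higher and 5 lower, near the 15.6% and 16.8% of all genes. The list median was 0.13. With values scaled by median of ratios, 10 of the 31 were higher and 3 lower, where 1072 and 1007 of the 7698 genes tested were. CTCF, an insulator protein gene, was the highest by mean level and stood at 62.5 FPKM in KO_FL, 24.4 in KO_dN, 42.9 in KO and 101.6 in WT. It was the only one of the list above pou5f3 in KO_FL, KO_dN or KO, and SMAD5, of BMP signalling, was the only one above pou5f3 in WT, at 122.6 FPKM. SMAD2, of Nodal signalling, stood at 11.9 FPKM in KO_FL, 12.1 in KO_dN, 16.6 in KO and 90.2 in WT, and mych, a Myc family gene, at 9.71 FPKM in KO_FL, 3.00 in KO_dN, 4.61 in KO and 77.7 in WT.

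Among co-activators and chromatin factors, 25 of 27 identifiers were tested. In KO/WT, 0 were at least 2-fold higher and 4 lower relative to the median gene, against 15.6% and 16.8% of all genes. The list median was -0.26, and all 25 had a lower ratio than nanog, which stood at percentile 87.8 of all genes tested. brd3a, a bromodomain protein gene, stood at 16.3 FPKM in KO_FL, 7.90 in KO_dN, 11.0 in KO and 282.8 in WT. ANP32E, a chaperone gene of the histone variant H2A.Z, stood at 87.3 FPKM in KO_FL, 31.1 in KO_dN, 73.5 in KO and 152.1 in WT. HDAC1, a histone deacetylase gene, stood at 33.0 FPKM in KO_FL, 13.5 in KO_dN, 30.6 in KO and 98.3 in WT. In KO_FL/KO, 0 of 25 passed 2-fold relative to the median gene, where 4.72% of all genes were higher and 2.64% lower. All 25 had a higher ratio than sox19b, which stood at percentile 6.01 of all genes tested.

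Among regulators of maternal mRNA, 27 of 28 identifiers were tested. In KO/WT, 2 were at least 2-fold higher and 2 lower relative to the median gene, against 15.6% and 16.8% of all genes. The list median was -0.09. With nanog at percentile 87.8 of all genes tested, 25 of 27 had a lower ratio than nanog, near the share of all genes. In each group 2 of the 28 stood above nanog in level, and these were pabpc1a, a poly(A)-binding protein gene, and YBX1, a cold-shock domain protein gene. YBX1 stood at 219 FPKM in KO_FL, 78.8 in KO_dN, 176.9 in KO and 203.8 in WT. pabpc1a stood at 344.5 FPKM in KO_FL, 60.3 in KO_dN, 79.4 in KO and 1873 in WT.

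**Figure D5:**
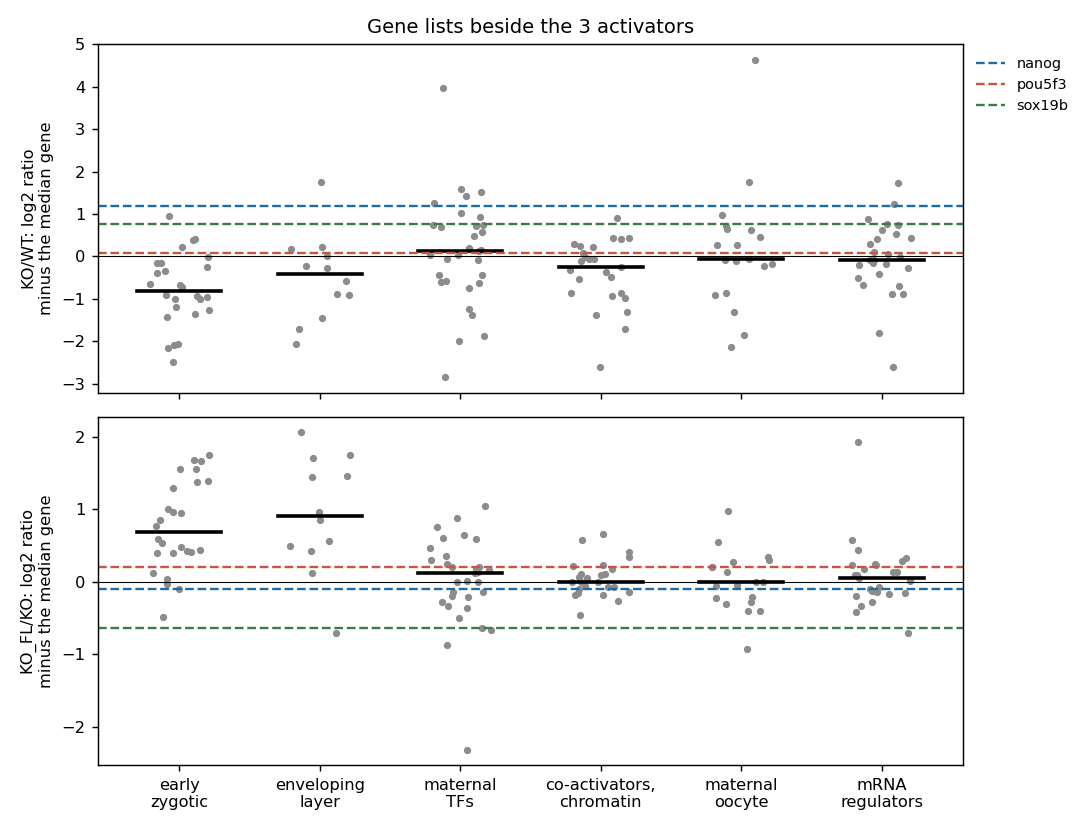
Log2 ratio minus that of the median gene for the tested genes of 6 lists (grey points, with the list median as a black bar) in KO/WT (top) and KO_FL/KO (bottom), with nanog, pou5f3 and sox19b as dashed lines. The early zygotic median is -0.82 in KO/WT and 0.68 in KO_FL/KO, and sox19b lies above all 6 list medians in KO/WT, at 0.75, and below all 6 in KO_FL/KO, at -0.63.

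Markers of the outer and yolk cell types are given beside the activators. Of 21 enveloping layer markers, 12 were tested, and their summed level over all 21 was 94.1 FPKM in KO_FL, 22.4 in KO_dN, 39.0 in KO and 344.6 in WT. As a share of all FPKM in the group, this sum was 0.0238% in KO_FL, 0.0118% in KO_dN, 0.0107% in KO and 0.0168% in WT. In KO_FL/KO, 5 of 12 were at least 2-fold higher relative to the median gene and 0 lower, against 4.72% and 2.64% of all genes. In KO/WT, 1 of 12 was higher and 3 lower, against 15.6% and 16.8%. The higher one was krt92, singled out after its values were seen, with relative log2 ratios of 1.75 in KO/WT and -0.71 in KO_FL/KO. Of the 21, 1 was listed at 0 in KO_FL, 5 in KO_dN, 5 in KO and 1 in WT. Of 16 yolk syncytial layer markers, 5 were tested, with a summed level over all 16 of 150.4 FPKM in KO_FL, 44.5 in KO_dN, 85.0 in KO and 441.4 in WT. As a share of all FPKM in the group, this sum was 0.0380% in KO_FL, 0.0233% in KO_dN, 0.0233% in KO and 0.0215% in WT, so WT was highest in FPKM and lowest in share. Most of the sum came from ctsla, a cathepsin gene, in each group. It stood at 128.1 FPKM in KO_FL, 40.0 in KO_dN, 79.6 in KO and 375.3 in WT, so sum and share mainly follow that gene. In KO_FL/KO, 2 of these 5 were at least 2-fold higher relative to the median gene and 0 lower, where 4.72% and 2.64% of all genes were. In KO/WT, 1 of the 5 was higher and 1 lower, where 15.6% and 16.8% of all genes were. FGB, a fibrinogen gene singled out after its values were seen, went the other way from the other 4, with relative log2 ratios of 1.43 in KO/WT and -0.77 in KO_FL/KO. mxtx1 and mxtx2, homeobox genes of the yolk syncytial layer, of which mxtx2 is known as a target of Nanog, stood at 2.82 and 2.30 FPKM in KO_FL, 0.12 and 0.48 in KO_dN, 0.15 and 0.52 in KO, and 17.7 and 8.61 in WT. The part of cell type makeup in the levels of the activators was not tested.

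The 4-group profiles of the activators were compared with those of other genes. Likeness over the 4 groups was the Euclidean distance between log2(FPKM + 1) profiles, each minus its own mean, among tested genes with a symbol and a mean log2 level within 1 of the activator. For nanog, 120 genes qualified, and the nearest were CCNA2 (distance 0.13), SNRPB, CHTOP, hnrnpa0l and taf15 (0.29). For pou5f3, 240 genes qualified, and the nearest were SNRPA1 (0.028), HNRNPU, ube2d2, SAP18 and SMARCE1 (0.12). For sox19b, 1211 genes qualified, and the nearest were VPS9D1 (0.17), MEPCE, si:dkey-207j16.9, EOMES and WAC (0.24). Each profile had 4 points, and nothing was tested on this likeness.

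The activators were also set against each other. The distance was 0.90 between nanog and pou5f3, 0.74 between nanog and sox19b, and 0.93 between pou5f3 and sox19b. The median distance to the qualifying genes was 1.81 for nanog, 1.1 for pou5f3 and 1.26 for sox19b. The mean log2 level of sox19b was not within 1 of that of nanog or pou5f3, so its distances and these medians cover unlike sets. Within a distance of 0.3 lay 5 qualifying genes for nanog, 18 for pou5f3 and 9 for sox19b, all nearer than the other activators. CCNA2, nearest to nanog, stood at 71.4 FPKM in KO_FL, 37.1 in KO_dN, 59.9 in KO and 110.9 in WT. SNRPA1, nearest to pou5f3, stood at 19.1 FPKM in KO_FL, 8.10 in KO_dN, 14.7 in KO and 55.1 in WT. EOMES, the name of a T-box transcription factor gene whose product is supplied by the mother in zebrafish, stood at 2.93 FPKM in KO_FL, 2.96 in KO_dN, 5.33 in KO and 13.6 in WT.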

How the data were processed

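Ribosome footprints of 8 samples in 4 groups were deposited as 1 FPKM value per gene and group, made by the authors from both replicates, per the series design text. Per the submitters' processing notes, the build was Zv9 and the tools were Cufflinks 2.2.1, TopHat2 2.1.1, Bowtie, Trimmomatic 0.36 and cutadapt, with no settings or annotation given. The labels call the molecule polyA RNA, at odds with the footprint protocol.

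Of 33737 identifiers, 101 on more than 1 line of the WT file and 3 absent from it were left out. Ratios used a pseudocount of 1 FPKM over the 7698 genes with a mean of at least 1 FPKM, and "relative" values are minus the median ratio. Median-of-ratios factors came from 3177 genes at 1 FPKM or more in every group and were 0.90 for KO_FL, 0.45 for KO_dN, 0.73 for KO and 3.40 for WT. Relative depth came from the commonest log2 ratios among genes below 0.1 FPKM in each pair of groups, and the 6 pairs gave the same library steps within 0.001 (log2). The injected groups were set against WT as levels and ranks only. Symbols of the lists were matched without regard to case, and a symbol ending in a or b with no match was matched without that letter.

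The named genes were the 3 activators, the measured SoxB1 genes, the 5 nearest profiles of each activator and the 4 highest genes of each list. The activators and the lists were chosen with earlier results of these data known. Scripts used Python 3.11.15, pandas 2.3.3 and numpy 2.4.6. Only the ratios of values scaled by median of ratios and the relative depths were tested on simulated data. The ranks, lists and profiles were not.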

Additional observations from a re-analysis of the deposited data

How the results depend on the processing

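No paired analysis was possible because each group has 1 deposited value made from both replicates; for the same reason no replicate could be left out. Ranks moved by at most 4 places when lines of the same identifier were summed. Ranks among the genes tested were the same by construction, since every gene above an activator in a group passes the filter. Of the relative log2 ratios in 4 comparisons, 96 of 120 alternative values lay within 1.5-fold of the value given above. Most of the values outside that range were in KO/WT, where most of the alternatives moved. As deposited, the KO/WT log2 ratios of nanog, pou5f3 and sox19b turned positive with TPM (1.72, 0.60 and 1.15), TPM without the 50 highest genes (1.55, 0.43 and 1.03), quantile normalization (1.86, 0.54 and 1.21) and median-of-ratios scaling (1.43, 0.32 and 0.85).

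Relative KO/WT log2 ratios of nanog and pou5f3 were 1.82 and 0.69 with a pseudocount of 0.1 and 1.86 and 0.74 with TPM, and that of nanog was 1.96 with quantile normalization. For nanog, pou5f3 and sox19b they were 1.90, 0.77 and 1.38 with TPM without the 50 highest genes. They were 1.82, 0.72 and 1.38 with a mean of 5 FPKM or more required, and 0.27, -0.74 and 0.042 with a pseudocount of 5. Against genes of the same decile of mean level, an alternative added after seeing the data, they were 2.08, 0.98 and 1.51. WT carries most of the mean that sets the deciles, which can lower the KO/WT median of the highest ones. The values against the same decile can thus overstate the excess, which was not tested. With no filter on low values the relative KO/WT log2 ratios of nanog, pou5f3 and sox19b were -0.26, -1.36 and -0.70, and the cause was not tested. nanog was above 0 in 10 of 11 settings, sox19b in 10 and pou5f3 in 9. Quantile normalization took the relative ratio of nanog to -0.68 in KO_FL/KO and -0.55 in KO_FL/KO_dN, and that same decile took KO_FL/KO_dN to -0.44 for nanog and -0.13 for pou5f3; the cause was likewise not tested. Of list counts by direction, 93 of 264 moved by over 1.5 times with a fold of 1.5, no filter or scaled values. Numbers of genes 2-fold higher and lower in KO/WT relative to the median gene were 1201 and 1296, against 2125 and 2090 at 1.5-fold and 404 and 5785 with no filter. Counts with no filter cover every gene above 0 in any group, a larger set than the 7698 genes behind the others. They cannot be set against those as shares. In KO_FL/KO, 363 and 203 became 791 and 528 at 1.5-fold; in KO_dN/KO, 131 and 151 became 309 and 577 at 1.5-fold, and with no filter 422 were lower, and 199 were higher scaled; in KO_FL/KO_dN, 464 and 182 became 1120 and 504 at 1.5-fold and 1336 and 92 with no filter, and 308 were lower scaled.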

Other observations

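ddx3xa, the paralogue of the targeted gene, stood at 11.4 FPKM in KO_FL, 3.18 in KO_dN, 11.1 in KO and 28.1 in WT. ddx3xb had more FPKM than nanog in KO_FL (76.7 against 73.6), KO_dN (126.5 against 40.8) and WT (128.9 against 117.9), and less in KO (14.7 against 69.7). The ddx3xb levels in KO_FL and KO_dN can include footprints on the construct, so they are not levels of the embryo's own gene alone. ZAR1 was the 1 of 19 tested maternal oocyte genes at least 2-fold higher in KO than in WT as deposited, against 2.48% of all genes tested. ZAR1 stood at 42.5 FPKM in KO_FL, 18.4 in KO_dN, 32.5 in KO and 4.18 in WT.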
